A study of Mus musculus with 5 samples.

Results

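Notch signalling was followed through 10 genes in mouse dendritic cells that kept or lacked Etv3: the ligands Jag1, Jag2, Dll1 and Dll4, the receptors Notch1, Notch2 and Notch4, the DNA-binding factor Rbpj, and the target genes Hes1 and Nrarp. They are 10 of the 27678 genes in the deposited table, and all 10 were found there by symbol. The list was chosen by name with the differences between these same Etv3-/- and Etv3+/+ libraries already known, so the members' own levels and differences are a description, without a test.

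Bulk RNA-seq libraries came from bone marrow cultures of Etv3+/+ mice (2 libraries) and Etv3-/- mice (3 libraries), and genotype is the single label that differs. The question is how loss of Etv3, an ETS family transcription factor, alters dendritic cells. Every culture was kept for 6 days in GM-CSF (20 ng/ml) and IL-4 (5 ng/ml), cytokines that turn marrow progenitors into dendritic cells, and live CD11c+ cells with intermediate CD11b, high MHC class II and no CD115 were then sorted. The sources used here give no strain, age or sex and do not say which part of Etv3 was disrupted. Nor do they tie replicates to separate animals, so p-values and SDs cover differences between these libraries that may be technical.

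Notch signals pass between touching cells. A ligand of the Jagged or Delta-like family on a neighbour binds a Notch receptor, ADAM10 and then the gamma-secretase complex cut the receptor, and the freed intracellular domain joins RBPJ and a Mastermind coactivator in the nucleus to switch on genes such as the repressor Hes1 and Nrarp, a feedback inhibitor of that complex. Among dendritic cells the pathway is known above all for Notch2, on which a subset marked by the adhesion molecule Esam depends, and Jagged and Delta-like ligands on dendritic cells are known as signals to T cells.

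Depth was 42983550 to 68253936 reads per library, recovered from the normalized counts, which are read counts divided by a factor for each library. Log2 values correlated at 0.90 to 0.92 (Pearson's r) within a genotype and at 0.87 to 0.89 across genotypes. Etv3+/+ replicate 2 and Etv3-/- replicate 3 stood apart by the trend of their counts with GC content (Spearman's rho over genes -0.42 and 0.41, against -0.10 to 0.09 in the other 3). Mitochondrial genes took 6.64% of Etv3+/+ replicate 2 and 1.10% to 3.17% of the others. Etv3 itself was counted at 18691 to 22856 in the Etv3-/- libraries, against 23050 and 25447 in Etv3+/+ (limma adjusted p = 0.567). A count over the whole gene does not check the knockout, because the disrupted part is not known here, and all directions rest on the labels.

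The promoters of the ligand and the receptor whose groups stood apart are shown, since the missing factor is a DNA-binding protein. RefSeq promoters (GRCm38.p6, 250 bases before to 50 after the start) matched 9 of the 10 members, all except Hes1. Capitals mark GGAA or its reverse complement TTCC, the core that ETS proteins bind. The Jag1 promoter is chr2:137116471-137116770 on the minus strand and the Notch2 promoter is chr3:98013288-98013587 on the plus strand, both written 5′ to 3′ along the gene.
Jag1: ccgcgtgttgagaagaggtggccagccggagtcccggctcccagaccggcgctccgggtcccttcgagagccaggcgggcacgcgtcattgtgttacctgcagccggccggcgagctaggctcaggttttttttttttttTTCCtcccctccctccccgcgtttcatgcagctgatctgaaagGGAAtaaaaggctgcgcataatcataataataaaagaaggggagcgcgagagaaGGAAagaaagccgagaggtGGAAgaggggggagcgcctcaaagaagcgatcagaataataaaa
Notch2: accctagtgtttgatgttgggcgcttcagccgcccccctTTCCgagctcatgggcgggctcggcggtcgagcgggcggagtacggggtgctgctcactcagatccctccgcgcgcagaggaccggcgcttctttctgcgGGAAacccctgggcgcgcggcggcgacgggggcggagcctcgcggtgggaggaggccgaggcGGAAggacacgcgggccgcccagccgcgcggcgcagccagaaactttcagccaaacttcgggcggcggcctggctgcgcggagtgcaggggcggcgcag
Jag1 held 4 such cores and Notch2 held 3, the median over 32851 promoters of the same length, of which 96.0% held at least 1. The longer ETS core CCGGAA, found on either strand in 14.9% of promoters, was in neither window. TGGGAA, the core that RBPJ binds, contains GGAA and was found on either strand in 25.6% of promoters. It was in neither window, and among the matched members it was in the promoters of Rbpj alone, with 2 matches at chr5:53590096-53590395. A second Rbpj promoter overlaps that window and holds 1 of the same matches. These matches describe letters, not bound sites.

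Jag1 was lower in all 3 Etv3-/- libraries, while Notch2 and Hes1 were higher in every Etv3-/- library than in either Etv3+/+ library. Of the 10 members, 9 passed the filter on low values (10 or more normalized counts in 2 or more libraries). Over all 13813 genes tested with limma, 1.19% passed an adjusted p of 0.05 in either direction, 0.876% higher and 0.319% lower in Etv3-/-. Among the 9 members 1 passed, Jag1, as lower, and 0 passed as higher. Groups did not overlap for 36.0% of all genes tested, 16.7% with Etv3-/- higher and 19.3% with Etv3-/- lower. The same was true of 2 members with Etv3-/- higher, Notch2 and Hes1, and of 1 with Etv3-/- lower, Jag1. The median log2 fold change was -0.09 over the 9 members and -0.06 over all genes tested. Since the members were named with these values known, nothing is read from these counts. All fold changes below are Etv3-/- minus Etv3+/+ on the log2(normalized count + 1) scale. For low genes the fitted change can be smaller than the ratio of the means, as for Hes1, or larger. It can also have the opposite sign, as for Dll1.

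**Figure D1:**
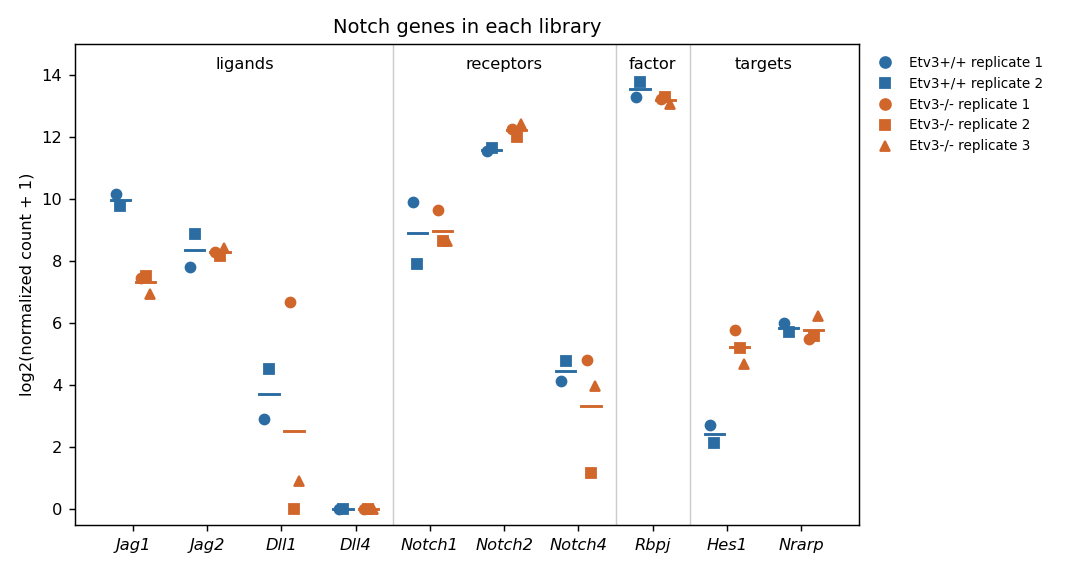
Each point is 1 library's level of 1 Notch gene as log2(normalized count + 1), blue for Etv3+/+ and orange for Etv3-/-, with the symbol giving the replicate and the short line the group mean. Jag1 is lower in all 3 Etv3-/- libraries, Hes1 and Notch2 are higher in all 3, Dll4 is at 0 throughout, and the points of the other genes overlap between genotypes.

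Jag1 (ENSMUSG00000027276.7, chromosome 2, 137081456 to 137116644, minus strand, GRCm38), which encodes the ligand Jagged1, was counted at 1154 and 881 in Etv3+/+ and at 175, 185 and 123 in Etv3-/-. The highest Etv3-/- library lay well below the lowest Etv3+/+ library, and each group spread little within itself, by 1.3-fold in Etv3+/+ and 1.5-fold in Etv3-/-. The group means were 1017 ± 193 (SD, n = 2) and 161 ± 33.3 (SD, n = 3) normalized counts, 6.32-fold lower in Etv3-/-. The fitted log2 fold change was -2.66 (SE 0.42), the 11th largest among the 44 genes past the threshold as lower. In bulk samples a smaller share of Jag1-expressing cells and less Jag1 RNA per cell cannot be told apart.

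Across 20 alternative analyses the log2 fold change of Jag1 ranged from -2.86 to -2.44. Jag1 was past the threshold in 10 of them and not in the other 10: each of the 5 fits that left out 1 library, the fit without Etv3+/+ replicate 2 and Etv3-/- replicate 3 together (-2.68), the fit that tested every gene with a read, limma without its trend, and both fits with the replicate number as a block.

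Jag2, the other Jagged ligand (chromosome 12, 112907819 to 112929776, minus strand), overlapped between genotypes. It was counted at 225 and 467 in Etv3+/+ and at 312, 286 and 343 in Etv3-/-, so the 3 Etv3-/- libraries lay between the 2 Etv3+/+ libraries. Means were 346 ± 172 (SD, n = 2) and 314 ± 28.4 (SD, n = 3), and the log2 fold change was -0.05 (SE 0.47), with a sign that changed in 4 of the alternatives, quantile scaling among them.

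The Delta-like ligands were at or near the limit of detection in most libraries. Dll1 (chromosome 17, 15367354 to 15376872, minus strand), a ligand known from lymphocyte development, had 7 and 26 reads in Etv3+/+ and 94, 0 and 1 in Etv3-/-, or 6.52, 22.2, 101, 0 and 0.88 normalized counts. Etv3-/- replicate 1 alone was high, and it set the Etv3-/- mean of 34.0 ± 58.1 (SD, n = 3) against 14.4 ± 11.1 (SD, n = 2) in Etv3+/+. The fitted log2 fold change was -1.20 (SE 2.21) although the ratio of the means was 2.36, and the sign changed with edgeR, with DESeq2 and without Etv3-/- replicate 2. Dll1 was tested in 16 of the 20 alternatives. It did not pass the filter without Etv3-/- replicate 1 or without Etv3+/+ replicate 2. The same held without Etv3+/+ replicate 2 and Etv3-/- replicate 3 together, and with a filter of 50 normalized counts in 2 libraries. Dll4 (chromosome 2, 119325784 to 119335962, plus strand), the ligand best known for directing thymic progenitors to T cells, had 0 reads in all 5 libraries. A count of 0 allows a level of up to 2.57 to 3.72 normalized counts, depending on the library (3 reads), and like the Poisson intervals given below this limit covers counting error alone, since PCR copies carry no molecular identifiers.

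Of the receptors, Notch2 (chromosome 3, 98013527 to 98150361, plus strand) was the most abundant and the one whose groups stood apart. It was counted at 2969 and 3191 in Etv3+/+ and at 4951, 4069 and 5447 in Etv3-/-, so every Etv3-/- library was above both Etv3+/+ libraries. Means were 3080.2 ± 157 (SD, n = 2) and 4822.5 ± 698 (SD, n = 3) normalized counts, 1.57-fold apart, with a log2 fold change of 0.64 (SE 0.22) that did not pass the threshold over all genes. Over the 20 alternatives it ranged from 0.54 to 0.75 and passed the threshold in none. Notch2 lies 10.5 Mb from Etv3 on the same chromosome.

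Notch1 (chromosome 2, 26457903 to 26516663, minus strand), the receptor known for T cell commitment, varied more within a genotype than between them. Its counts were 968 and 240.5 in Etv3+/+ and 805, 400.0 and 398 in Etv3-/-, a 4.03-fold range between the 2 Etv3+/+ libraries that spans all 3 Etv3-/- libraries. Means were 604 ± 515 (SD, n = 2) and 534 ± 234 (SD, n = 3), with a log2 fold change of 0.06 (SE 0.63) whose sign changed in 5 of the alternatives. Notch4 (chromosome 17, 34564268 to 34588503, plus strand), a receptor known mainly from blood vessels, had 18 and 31 reads in Etv3+/+ and 25, 1 and 17 in Etv3-/-. Its groups overlapped, at 21.7 ± 6.90 (SD, n = 2) and 14.3 ± 12.8 (SD, n = 3) normalized counts, and Etv3-/- replicate 2 was the low library. The log2 fold change was -1.15 (SE 1.47) and ranged from -1.89 to -0.07 over the alternatives.

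Rbpj (chromosome 5, 53466152 to 53657362, plus strand), the factor through which all Notch receptors act, was the most abundant member. It was counted at 10051 and 14105 in Etv3+/+ and at 9614.5, 10107 and 8624 in Etv3-/-, and the lower Etv3+/+ library fell within the Etv3-/- range. Means were 12078 ± 2867 (SD, n = 2) and 9448.5 ± 755 (SD, n = 3), with a log2 fold change of -0.34 (SE 0.22). The sign turned with the correction for GC content and length (0.10), and Etv3+/+ replicate 2, the higher library, is the one whose counts fell most with GC content.

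Of the 2 targets, the groups stood apart for Hes1 and overlapped for Nrarp. Hes1 (chromosome 16, 30064384 to 30067796, plus strand), the transcriptional repressor that is the standard readout of Notch signalling, had 6 and 4 reads in Etv3+/+ and 50, 29 and 28 in Etv3-/-. In normalized counts these were 5.59 and 3.42 against 53.8, 35.9 and 24.6, so the lowest Etv3-/- library was above both Etv3+/+ libraries. The 95% Poisson intervals of the reads, scaled the same way, reached 12.2 and 8.76 in Etv3+/+ and began at 39.9, 24.1 and 16.3 in Etv3-/-. Means were 4.51 ± 1.53 (SD, n = 2) and 38.1 ± 14.7 (SD, n = 3), 8.45-fold apart, and the log2 fold change of 2.79 (SE 1.12) did not pass the threshold over all genes. Hes1 passed the filter on low values through the Etv3-/- libraries alone. It ranged from 2.13 to 3.12 in the 19 alternatives that tested it and passed the threshold in none. At these levels Hes1 remained a scarce transcript in both genotypes.

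Nrarp (chromosome 2, 25180758 to 25183339, plus strand), whose product binds the Notch transcription complex and limits it, was counted at 63.4 and 51.3 in Etv3+/+ and at 44.1, 47.1 and 74.5 in Etv3-/-. The groups overlapped, at 57.4 ± 8.51 (SD, n = 2) and 55.2 ± 16.8 (SD, n = 3), with a log2 fold change of -0.09 (SE 0.75) whose sign changed in 5 of the alternatives, quantile scaling among them. The exons of Nrarp overlap those of the antisense gene Gm38287 over 2051 bases in GENCODE M21. Other exon overlaps on the opposite strand were 867 bases for Dll1, 214 for Dll4, and 1068 and 414 for Notch1, and Notch2 shares 541 bases with an unclassified transcript of its own strand. Whether strand was used in counting is not stated in these sources, and without it the reads of such partners cannot be told apart.

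**Figure D2:**
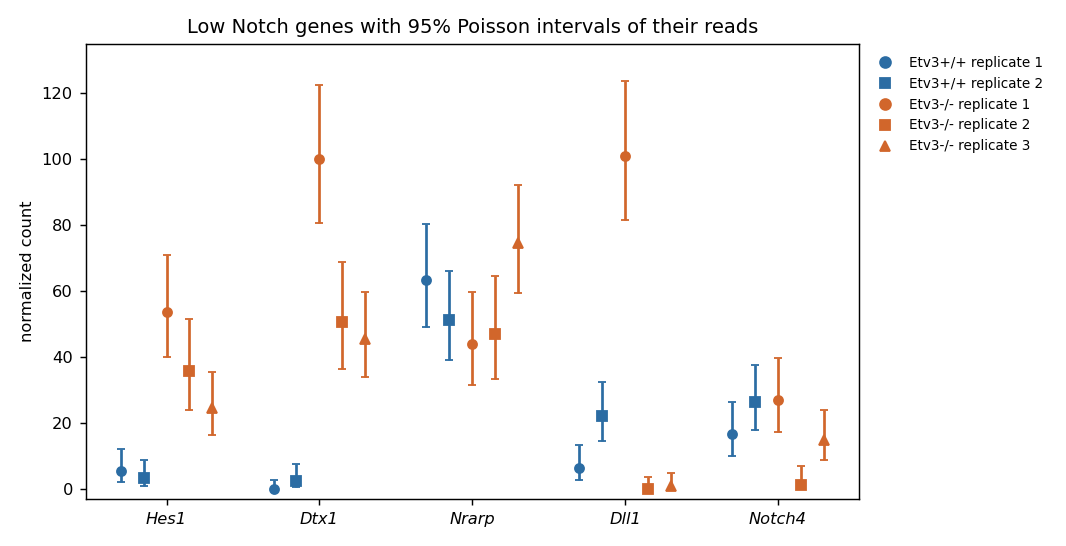
Points are the normalized counts of Hes1, Dtx1, Nrarp, Dll1 and Notch4 in each library, blue for Etv3+/+ and orange for Etv3-/-, with bars for the 95% Poisson interval of the reads on the same scale (at 0 reads, up to 3 reads). For Hes1 and Dtx1 the bars of the 2 genotypes do not meet, Dll1 is high in Etv3-/- replicate 1 alone, and Notch4 is low in Etv3-/- replicate 2 alone. The bars cover counting error alone, and Hes1 and Dtx1 were named with their values known, so their separation is a description.

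Per kilobase of exon, the levels of different genes can be set side by side, though only roughly. The length covers all annotated exons of a gene and can exceed that of the transcript expressed, and the libraries differ in GC trend. In Etv3+/+ the order of the group means, in normalized counts per kb, was Rbpj 947, Notch2 286, Jag1 175, Jag2 49.7, Notch1 42.5, Nrarp 22.2, Dll1 3.41, Notch4 2.69, Hes1 2.21 and Dll4 0. The libraries of Jag2 and Notch1 overlapped, as did those of Notch1 and Nrarp and those of Dll1, Notch4 and Hes1, so these neighbours do not differ beyond their spread. In Etv3-/- the order was Rbpj 741, Notch2 447, Jag2 45.0, Notch1 37.5, Jag1 27.6, Nrarp 21.4, Hes1 18.7, Dll1 8.06, Notch4 1.78 and Dll4 0. Jag1 stood in the third place in Etv3+/+ and in the fifth in Etv3-/-, where its libraries overlapped those of Notch1, Nrarp, Hes1 and Dll1.

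Jag1 was the larger Jagged ligand in Etv3+/+ and the smaller in Etv3-/-. The 4 ligands summed to 232 and 223 normalized counts per kb in Etv3+/+ and to 98.8, 72.7 and 70.5 in Etv3-/-. Jag1 was 85.4% and 67.6% of that sum in Etv3+/+ and 30.4%, 43.5% and 29.9% in Etv3-/-. Its level per kb was 6.14 and 2.25 times that of Jag2 in the Etv3+/+ libraries and 0.67, 0.77 and 0.43 times in the Etv3-/- libraries, so Jag1 was above Jag2 in both Etv3+/+ libraries and below it in all 3 Etv3-/- libraries. Dll1 was 24.2% of the ligand sum in Etv3-/- replicate 1.

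Notch2 made up most of the receptor sum in every library. The 3 receptors summed to 346 and 316 normalized counts per kb in Etv3+/+ and to 519, 406 and 535 in Etv3-/-. Notch2 was 79.7% and 93.6% of the sum in Etv3+/+ and 88.5%, 93.0% and 94.4% in Etv3-/-, and the 2 groups overlapped. The ratio of Notch2 to Notch1 per kb ran from 4.05 to 17.5 in Etv3+/+ and from 8.12 to 18.1 in Etv3-/-.

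**Figure D3:**
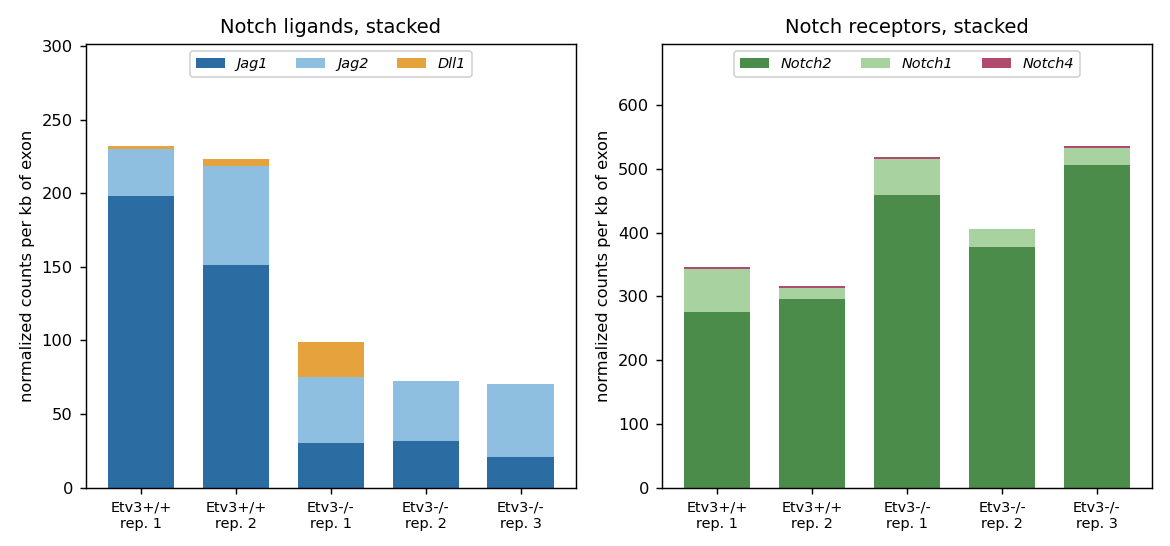
Stacked bars give the normalized counts per kb of exon of the Notch ligands (left) and receptors (right) in each library, from 0. Ligand bars are taller in Etv3+/+ (232 and 223) than in Etv3-/- (70.5 to 98.8) through the Jag1 segment, and the receptor bars are mostly Notch2 in all 5 libraries.

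**Figure D4:**
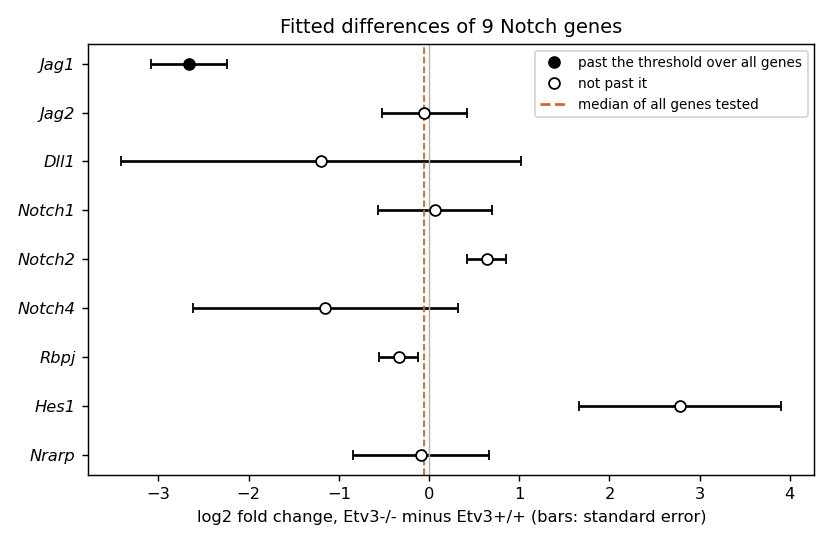
Points are the fitted log2 fold changes (Etv3-/- minus Etv3+/+) of the 9 members tested, with bars for 1 SE on each side, and the dashed line is the median of all genes tested (-0.06). Jag1 is the filled point, past the threshold over all genes, Notch2 and Hes1 lie above 0 by more than their SE, and Dll1 and Notch4 have the widest bars.

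Around the 10 members, 77 other genes of the pathway were read from the same fit, grouped by role, and 66 of them passed the filter. Crebbp alone passed the threshold, as lower in Etv3-/-, and none passed as higher, against 0.319% and 0.876% of all genes tested. Of the 66, 10 had an unadjusted limma p below 0.05, against 18.0% of all genes tested. edgeR called Crebbp too, and DESeq2 called it with Aph1b, Dtx1, Myc and Nedd4l. Groups did not overlap for 9 of the 66 with Etv3-/- higher and for 16 with Etv3-/- lower, against 16.7% and 19.3% of all genes tested. The median log2 fold change was -0.19 over the 66, with 27 above 0 and 39 below. Over all genes tested the median was -0.06 and 46.3% were above 0.

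Crebbp (chromosome 16, 4081328 to 4213997, minus strand) encodes CBP, an acetyltransferase that the Notch complex and many other transcription factors recruit. It was counted at 10889 and 11488 in Etv3+/+ and at 4275, 5152 and 3464 in Etv3-/-, with no overlap and little spread in either group. Its mean of 11189 ± 423 (SD, n = 2) normalized counts in Etv3+/+ fell 2.60-fold to 4297 ± 844 (SD, n = 3) in Etv3-/-, with a log2 fold change of -1.40 (SE 0.23, limma adjusted p = 0.0363). The call was lost in 8 of 20 alternatives, among them each fit that left out 1 library (adjusted p 0.0878 to 0.157), and adjusted p ranged from 6.4e-06 to 0.160. Ep300, the related acetyltransferase, and the Mastermind genes were named after their values were seen, and none passed. Ep300 had a log2 fold change of -0.06, Maml1 -0.05, Maml2 -0.64 and Maml3 2.59, the last with 0 reads in Etv3+/+ replicate 2 and 109 in replicate 1. Snw1, the most abundant other coactivator of the list, had 4497 and 4025 normalized counts against 4474, 3908 and 4523.

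Among other ligands and receptors, levels were low. Of 4 ligand-like genes 2 were at 0 in every library. Dlk2 had 96.0 and 27.4 normalized counts in Etv3+/+ and 31.2, 11.1 and 0 in Etv3-/-, and Dll3 had reads in 1 library of each genotype. Notch3, the receptor known from vascular smooth muscle, had 20 and 61 reads in Etv3+/+ and 0, 11 and 3 in Etv3-/- (adjusted p = 0.374). For ligand ubiquitination, which arms ligands for pulling on the receptor, none of 5 genes passed, with Mib2 at 3078 and 2688 in Etv3+/+ and 2368, 1963 and 2512 in Etv3-/- (log2 fold change -0.34, adjusted p = 0.464). Mib1 had a log2 fold change of -0.56 (adjusted p = 0.513).

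None of the enzymes tested that add sugars to the receptor or cut it passed the threshold, and Gxylt2 was at 0 in every library. Poglut1, which adds O-linked glucose to Notch repeats, was the most abundant pathway gene, at 42181 and 50110 normalized counts in Etv3+/+ and 30497, 36552 and 36432 in Etv3-/- (log2 fold change -0.42, adjusted p = 0.356). Xxylt1, which extends that glucose with xylose, was at 1334 and 1781 against 1179, 2019 and 1627, with overlapping groups. Over the 8 glycosylation genes tested the median was 0.02. Adam10, the protease of the first ligand-induced cut, was counted at 12194 and 14554 in Etv3+/+ and at 6953, 11458 and 4693 in Etv3-/-. Its groups did not overlap, and the log2 fold change of -0.89 (SE 0.35) gave an adjusted p of 0.249. Psen2, a catalytic subunit of gamma-secretase, was at 9258 and 7466 against 10616, 10518 and 10610 (log2 fold change 0.35, adjusted p = 0.394), with Etv3-/- higher in all 3 libraries. Of the 10 proteolysis genes 7 had a positive log2 fold change, against 46.3% of all genes tested, with a median of 0.23. Aph1b, a further subunit named after its values were seen, was at 145 and 190.0 in Etv3+/+ and at 684, 596 and 281 in Etv3-/- (log2 fold change 1.54), and of the 20 alternatives it passed the threshold with DESeq2 alone. Its reads may be shared with the near-identical Aph1c, which had a log2 fold change of -0.24.

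Corepressors, which RBPJ holds at its sites in the absence of Notch, gave 0 calls among 12 tested, with a median log2 fold change of -0.24 and 1 of the 12 under an unadjusted limma p of 0.05, against 18.0% of all genes. Ctbp1 was at 11716 and 8268 in Etv3+/+ and at 8952, 9890 and 9828 in Etv3-/-, with overlapping groups. Ncor1 was at 9779 and 10428 against 8580, 10062 and 7222 (log2 fold change -0.24, adjusted p = 0.583). Of the 13 genes for turnover and inhibition, 10 had a negative log2 fold change and the median was -0.45. Over all genes tested 46.3% were above 0 and the median was -0.06. The ubiquitin ligase Itch was at 8599 and 15072 in Etv3+/+ and at 16165, 21977 and 12238 in Etv3-/- (log2 fold change 0.52, adjusted p = 0.441), and it passed the threshold with the correction for GC content and length. Nedd4 had a log2 fold change of -0.42 (adjusted p = 0.417). Its relative Nedd4l, named after its values were seen, was at 5394 and 4865 against 2990, 2585 and 2491 (log2 fold change -0.93, adjusted p = 0.0813).

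Other target genes were mixed. Of 13 listed 8 were tested, none passed the threshold with limma, and 4 had an unadjusted p below 0.05 (18.0% of all genes tested did). Il2ra, the alpha chain of the IL-2 receptor, was at 4467 and 4136 in Etv3+/+ and at 2407, 2560 and 3043 in Etv3-/- (log2 fold change -0.69, adjusted p = 0.166), with no overlap. Hes6 was at 3509 and 2338 against 2503, 2996 and 3356, with overlapping groups. Heyl was at 0 in every library, and Hes5, Hes7 and Hey2 had at most 5 reads in any library.

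Dtx1, Myc and Esam were named after their values were seen. Dtx1, which encodes Deltex1, a Notch-regulated ubiquitin ligase, had 0 and 3 reads in Etv3+/+ and 93, 41 and 52 in Etv3-/-. It passed the filter on low values through the Etv3-/- libraries alone and did not pass the threshold with limma. Myc, a transcription factor for growth and a Notch target in T cells, was at 294 and 383 in Etv3+/+ and at 957, 795 and 1251 in Etv3-/- (2.96-fold apart by means, log2 fold change 1.55, adjusted p = 0.0849). Esam, the marker of the Notch2-dependent dendritic cell subset, was at 1243 and 655 in Etv3+/+ and at 242, 384 and 536 in Etv3-/- (log2 fold change -1.29, adjusted p = 0.219). For Hes1, Dtx1 and Myc every Etv3-/- library was above both Etv3+/+ libraries, and for Esam and Il2ra every one was below. Of the 8 other targets tested, groups stood apart for 2 as higher and 2 as lower, against 16.7% and 19.3% of all genes tested. The rest overlapped, as Nrarp did. Among them Hey1, also named after its values were seen, had 73 and 7 reads in Etv3+/+ and 0, 14 and 2 in Etv3-/-. Its log2 fold change was -2.57 (limma adjusted p = 0.509).

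**Figure D5:**
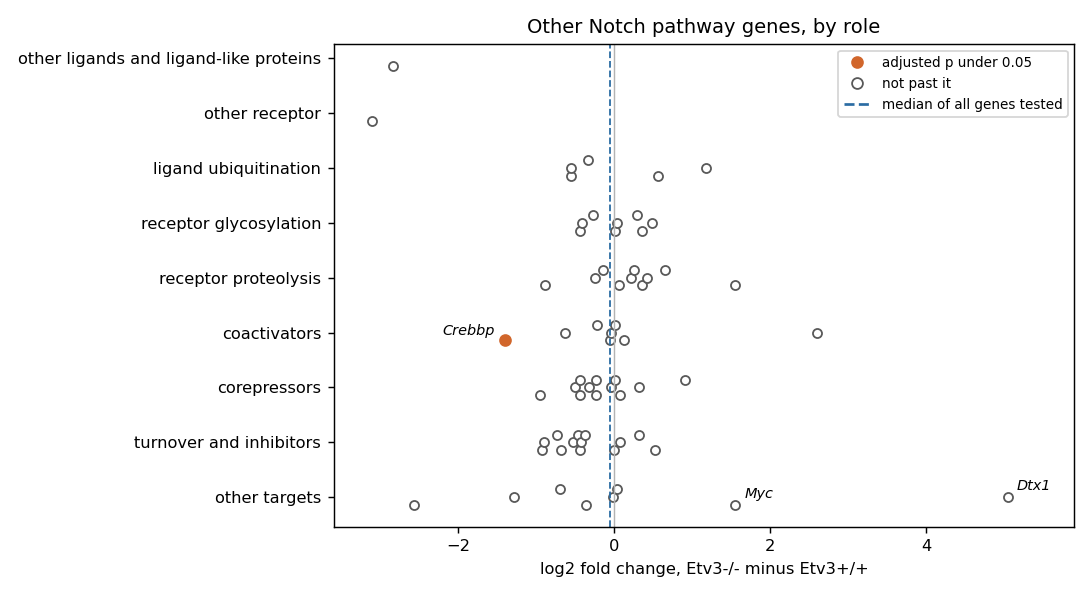
Each circle is the log2 fold change (Etv3-/- minus Etv3+/+) of 1 of 66 other pathway genes, in rows by role, with a dashed line at the median of all genes tested (-0.06). Crebbp, the filled circle, is the one gene past an adjusted p of 0.05, and Dtx1 and Myc lie farthest to the right among the other targets.

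The 5 tested genes whose profile was most like that of Jag1 were Cdkn1b, Lrig1, Fas, Lysmd2 and Lsmem2. Likeness was the root mean square difference of log2(normalized count + 1) over the 5 libraries after centring each gene on its mean, and these genes had 0.27, 0.29, 0.30, 0.32 and 0.33. They were picked for a profile like Jag1, so their direction is part of the choice. Cdkn1b, which encodes the cell cycle inhibitor p27, was at 1509 and 1478 in Etv3+/+ and at 367, 327 and 159 in Etv3-/-. Fas, the death receptor, was at 8515 and 11332 against 1309, 1659.5 and 1289, and was 6.99-fold lower by means, close to the 6.32-fold of Jag1 but at a level per kb of 4812 in Etv3+/+ against 175 for Jag1. Lrig1, a membrane protein that restrains growth factor receptors, was at 780.1 and 399.6 against 139, 95.4 and 83.3. Lysmd2 was at 2124 and 2108.5 against 393, 655 and 263, and Lsmem2 stayed low, at 28.9 and 33.4 against 5.38, 6.19 and 1.75. Cdkn1b, Fas and Lysmd2 were past the threshold over all genes and Lrig1 and Lsmem2 were not. The calls were lost in 13, 3 and 10 of 20 alternatives for Cdkn1b, Fas and Lysmd2.

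Markers of the sorted cells and of other cell types were summed beside these differences. The 10 dendritic cell markers were all tested, summed to 1016025 and 1432383 normalized counts in Etv3+/+ and to 2216466.5 to 2983799.5 in Etv3-/-, and Ciita, the master regulator of MHC class II, passed as higher. Cd74, H2-Aa, H2-Ab1 and H2-Eb1 made up most of these sums, and the other 6 markers summed to 160424 and 131873 in Etv3+/+ and to 137216, 125831 and 140009 in Etv3-/-. Irf8 made up most of this second sum, at 124608 and 94969 against 88209.5, 82795 and 88595. Of the 6, groups did not overlap for Irf8 with Etv3-/- lower, or for Ciita and Zbtb46 with Etv3-/- higher. They overlapped for Itgax, Flt3 and Irf4, so the sum does not stand for each marker. The 12 markers of mature dendritic cells summed to 1095285 and 1188413 against 1109422 to 1496688, with Il12b past the threshold as lower. Ccl22, Ccr7 and Cd83 made up most of these sums. Groups did not overlap for Ccl22, Cd40 and Cd83 with Etv3-/- higher, or for Fscn1, Il12b and Socs2 with Etv3-/- lower. Over all genes tested these shares were 16.7% and 19.3%. Of 12 macrophage and monocyte markers 3 passed as higher, C1qa, C1qb and C1qc, and the list summed to 10339 and 10447 in Etv3+/+ and to 21889 to 28879 in Etv3-/-. Of 20 alternatives, 8 lost the call of Ciita, 9 that of Il12b, and 8, 9 and 5 those of C1qa, C1qb and C1qc. The part of these shifts in the differences of Jag1, Notch2 and Hes1 was not tested.

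Endothelial and stromal cells also express Jag1, Notch4 and Hes1 in many tissues. The endothelial markers Cdh5, Tek, Emcn and Cldn5 were at 0 in all 5 libraries, as were the stromal markers Col1a2, Col3a1, Dcn and Lum. The 9 endothelial markers, Esam among them, summed to 1072 and 1884.5 in Etv3+/+ and to 1523 to 2626 in Etv3-/-. Esam was the most abundant of them in Etv3+/+ and Robo4 in Etv3-/-, and the 2 went opposite ways. Robo4 was at 496 and 205 in Etv3+/+ and at 883, 998 and 1798.5 in Etv3-/- (log2 fold change 1.87, limma adjusted p = 0.121). Kdr had 0 and 0 reads in Etv3+/+ and 198, 0 and 50 in Etv3-/-. The 8 stromal markers summed to 51.3 and 87.3 against 0 to 44.7. T cell markers (8) summed to 3692.5 and 3774 against 1897 to 3184, B cell markers (7) to 1724 and 2220.0 against 3508 to 5323, neutrophil markers (8) to 40106 and 48533 against 11891.5 to 63132, mast cell and basophil markers (6) to 6900 and 8203 against 4610 to 7168, and erythroid markers (6) to 16.3 and 81.1 against 14.9 to 49.5. None of these 7 lists had a member past the threshold with limma. The alternatives were read only for the most abundant marker of each list and for Esam. Among those, Robo4 and the neutrophil gene S100a8 each passed in 1 of 20 alternatives. The other members of these lists were not checked under the alternatives.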

How the data were processed

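For 27678 genes and 5 libraries the authors deposited a signal of normalized counts, reads scaled by 1 factor per library. Build mm10 and the tools DESeq2 1.26.0, featureCounts, STAR 2.7.3a, Subread 1.6.3 and Trimmomatic 0.36 are listed per the submitters' processing notes; the sources used here do not give their roles, the annotation, the strand setting or filters. Values in each library were whole multiples of 1 step (0.856 to 1.24 normalized counts per read), so dividing by it recovered the reads (100% of values whole at a tolerance of 0.1).

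The 13813 genes that reached 10 normalized counts in 2 or more libraries were tested with limma 3.58.1 in R 4.3.3 (lmFit, eBayes with trend) on log2(normalized count + 1), two-sided with no term but genotype, Benjamini-Hochberg adjusted over all of them, at a threshold of 0.05. Alternatives were other pseudocounts, filters and scalings (TMM, quantile), limma without trend, robust or with sample weights, count tests of the recovered reads (edgeR 4.0.16, DESeq2 1.42.0), a block for replicate number, a correction for GC content and length (local regression, span 0.3, 98.3% of tested genes with values), and each library left out. A fit without Etv3+/+ replicate 2 and Etv3-/- replicate 3 together was added after seeing the data. The labels do not say whether replicate numbers pair the samples. Deviations of same-numbered libraries from their group means correlated at -0.03 and 0.04, which with so few libraries cannot settle it. The fit was also run on simulated counts. These carried no GC trend, so they do not show how it handles libraries that differ in one.

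The 10 members, the 77 other pathway genes and the marker lists were chosen with earlier results of these data known. Named were Etv3, the members, pathway genes past the threshold and the 2 of highest mean count in each role, the 5 tested genes most like Jag1, and the markers that were most abundant or past the threshold. Genes outside this rule (Aph1b, Dtx1, Esam, Hey1, Myc, Nedd4l, further markers and those given as low or as relatives of a named gene) were named after their values were seen. Positions and exon lengths are from GENCODE M21 (GRCm38, the assembly of mm10) by symbol; promoters are from RefSeq on GRCm38.p6. GGAA was added to the motifs after the longer cores had been searched. Pearson correlations between libraries are a description.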

Additional observations from a re-analysis of the deposited data

How the results depend on the processing

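The analysis as reported gave 121 genes higher and 44 lower in Etv3-/-, and 1 other pathway gene past the threshold (Crebbp). A pseudocount of 5 gave 70 lower, limma without trend 44 higher and 0 pathway genes, sample weights 0 pathway genes, DESeq2 636 higher, 533 lower and 5 pathway genes, and the correction for GC content and length 225 higher, 106 lower and 2 pathway genes (Crebbp and Itch). With the replicate block the counts were 151 higher and 118 lower. The labels give these samples only a number in common, so this is not read as a paired result. Leaving out 1 library gave 0 to 73 higher, 0 to 7 lower and 0 to 0 pathway genes, with 0 of either direction without Etv3-/- replicate 1, where 1885 genes had an unadjusted limma p below 0.05. Without Etv3+/+ replicate 2 and Etv3-/- replicate 3, whose GC trends were strongest, 6 genes were higher, 1 lower and 0 pathway genes passed. The cause was not tested, except that fewer samples entered the omissions. Over 51 named genes and 1006 values under an alternative, 83 lost a call, 11 gained one, 49 uncalled values moved by more than the spread between replicates (1 SD), and 863 did none of these, a number that includes uncalled values whose sign changed. No scaling moved the median of all genes by over 0.1. Depth limits the values of Hes1, Dll1, Notch4 and Dtx1, which rest on few reads.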
